A study of Mus musculus with 18 samples.

Results

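The histone genes of the array were followed in mouse marrow cells labelled as mesenchymal (BM-MSCs), a cell type that can form bone and fat. They were chosen by symbol, as genes whose names start with H1f, H2ac, H2bc, H3c or H4c and a number, which gave 57 of the 19505 genes measured: 8 H1, 13 H2A, 15 H2B, 10 H3 and 11 H4 genes. Each mouse gave 1 array. The groups were 5 BALB/c controls and 5 NeuT mice of 12 weeks of age, and 4 controls and 4 NeuT mice of 24 weeks. The NeuT strain has a transgene for the activated rat form of Erbb2 (HER2/neu). The labels call the NeuT mice tumour-bearing at both ages, with mammary tumorigenesis at an early stage at 12 weeks and a late stage at 24 weeks, so the transgene and the tumours cannot be told apart, and they do not name the promoter of the transgene. Per the labels, cells of femurs and tibias from all groups were depleted with magnetic beads of cells bearing CD45, Ter119, CD11b, CD11c, CD3, Gr1 or B220, and flow cytometry showed them free of CD45 and positive for CD29 and CD44. The comparisons address how the marrow cells of tumour-bearing mice differ from those of controls at each age.

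Replication-dependent histone genes encode the proteins that package newly copied DNA. H2A, H2B, H3 and H4 form the nucleosome core, around which DNA is wound, and H1 binds the linker DNA between nucleosomes. Most of these genes lie in clusters, lack introns and are transcribed mainly in S phase. Their mRNAs mostly end in a stem-loop bound by SLBP in place of a poly(A) tail, and such mRNAs are degraded when DNA synthesis stops. The symbol rule also took in genes of another kind, of which 6 were set apart here. These were H1f6 and H1f7, which encode sperm cell linker histones, and H1f8, which encodes the oocyte linker histone. The others were H2ac1 and H2bc1, known from the testis, and H1f10, a replacement linker histone made outside S phase. This list may not be complete.

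Promoter sequences were matched by Entrez ID for 52 of the 57 genes (RefSeq, build GRCm38.p6). Letters were searched on both strands in the 250 bases before each start. The CCAAT box was present in 13 of 13 H2A and 13 of 13 H2B promoters, in 6 of 8 H1, 6 of 8 H3 and 3 of 10 H4 promoters, against 33.8% of all 32851 promoters in the table. The octamer ATTTGCAT, a POU-factor motif known from H2B promoters, was found in 6 H2A and 6 H2B promoters and in 0 of the 26 others, against 1.6% of all promoters. TATAAA was found in 24 of the 52, against 12.4% of all promoters. AAACACA, the H1 box, was found in 4 of 8 H1 promoters and in 8 of the 52, against 6.25%. The E2F-type letters TTTCGCGC were found in 3 H2A and 4 H2B promoters (0.256% of all), and TTTGGCGC in 0 of the 52 (0.417% of all). No motif contains another. These are letter matches and not shown binding sites. Many H2A and H2B genes stand head to head, and in 7 such pairs the windows overlap, so 14 promoters were not independent. The promoters of H2ac6, H2bc18 and H2ac1 are printed because the results below name these genes and each holds the octamer. Capitals mark the TATA, CCAAT and octamer letters or their reverse complements. H2ac6 lies at chr13:23683960-23684209 on the minus strand, H2bc18 at chr3:96269450-96269699 on the plus strand and H2ac1 at chr13:23934187-23934436 on the plus strand, each ending at the base before the start of the gene.
H2ac6: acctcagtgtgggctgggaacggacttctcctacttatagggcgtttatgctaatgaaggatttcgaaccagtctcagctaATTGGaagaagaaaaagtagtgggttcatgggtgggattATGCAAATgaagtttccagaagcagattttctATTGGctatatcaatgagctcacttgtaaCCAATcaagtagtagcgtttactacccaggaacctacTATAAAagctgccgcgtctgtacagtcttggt
H2bc18: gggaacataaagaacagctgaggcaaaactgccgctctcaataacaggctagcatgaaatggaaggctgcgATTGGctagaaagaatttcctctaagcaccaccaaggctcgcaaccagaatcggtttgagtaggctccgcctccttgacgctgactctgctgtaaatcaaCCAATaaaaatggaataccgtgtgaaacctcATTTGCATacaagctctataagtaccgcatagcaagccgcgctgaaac
H2ac1: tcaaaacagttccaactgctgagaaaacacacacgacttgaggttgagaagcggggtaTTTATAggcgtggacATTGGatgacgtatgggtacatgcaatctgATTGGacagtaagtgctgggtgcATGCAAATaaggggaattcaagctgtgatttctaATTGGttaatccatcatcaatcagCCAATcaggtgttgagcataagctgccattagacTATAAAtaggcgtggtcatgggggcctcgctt
The octamer began 48 bases before the start in H2bc18, 130 bases in H2ac6 and 124 bases in H2ac1. A TATAAA lay 32 bases before the start in both H2ac6 and H2ac1, and none was in the H2bc18 window. H2bc4, the gene with the clearest differences below, neighbours H2ac6 head to head, with 239 bases between the genes in RefSeq.

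The deposited values are log2 signals, 1 probe set for each of the 57 genes. Array medians over all genes lay between 8.43 and 8.56. Of the 57 genes, 49 lay in every array above 10.46, the 95th percentile of the negative control probe sets: 4 H1, 12 H2A, 13 H2B, 9 H3 and 11 H4 genes. H3c1, at a mean of 6.32, was the only gene with a mean below the control median of 7.35. Signals of different probe sets are not levels on a common scale. Within each class the highest and lowest mean signals were those of H1f1 (12.39) and H1f8 (7.51), H2ac20 (14.06) and H2ac21 (9.13), H2bc3 (13.10) and H2bc1 (7.87), H3c10 (13.16) and H3c1 (6.32), and H4c4 (13.45) and H4c11 (11.23). Near-identical paralogs may share hybridising transcripts. H3c14 and H3c15 had the same value in every array and so gave 1 measurement between them, and H2ac11, H2ac12 and H2ac24 never differed by more than 0.065.

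The labelled cell type was checked against marker genes. Ptprc, which encodes the depleted antigen CD45, read 11.70 to 12.45 and Elane, an elastase of neutrophil precursors, 13.62 to 14.24, both above 10.46 in every array. Cxcl12, a factor made by marrow stromal cells, read 9.04 to 9.45, below that mark in every array. The preparations thus held blood-cell transcripts. In such bulk RNA, fewer cells of a type and less RNA per cell cannot be told apart.

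At 12 weeks most histone genes were lower in NeuT than in BALB/c mice by small amounts. The NeuT minus BALB/c difference was below 0 for 51 of 57 genes, with a median of -0.20 on the log2 scale. Over all genes the share below 0 was 57.4% and the median -0.025. Among the 3488 genes with a mean above 10.46, as most histone genes were, 40% lay below 0. For 29 of the 57 the difference was -0.2 or less, against 7.43% of all genes. With limma and Benjamini-Hochberg adjustment over all genes, 1 of the 57 passed an adjusted p of 0.05, H2bc4, which fell; 0.687% of all genes passed as lower and 3.84% in either direction. At an unadjusted p under 0.05, 32 of the 57 were lower, against 9.41% of all genes. The groups did not overlap for 5 genes (H2ac1, H2ac15, H2bc4, H3c13 and H4c18), all lower in NeuT, against 2.82% of all genes.

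**Figure D1:**
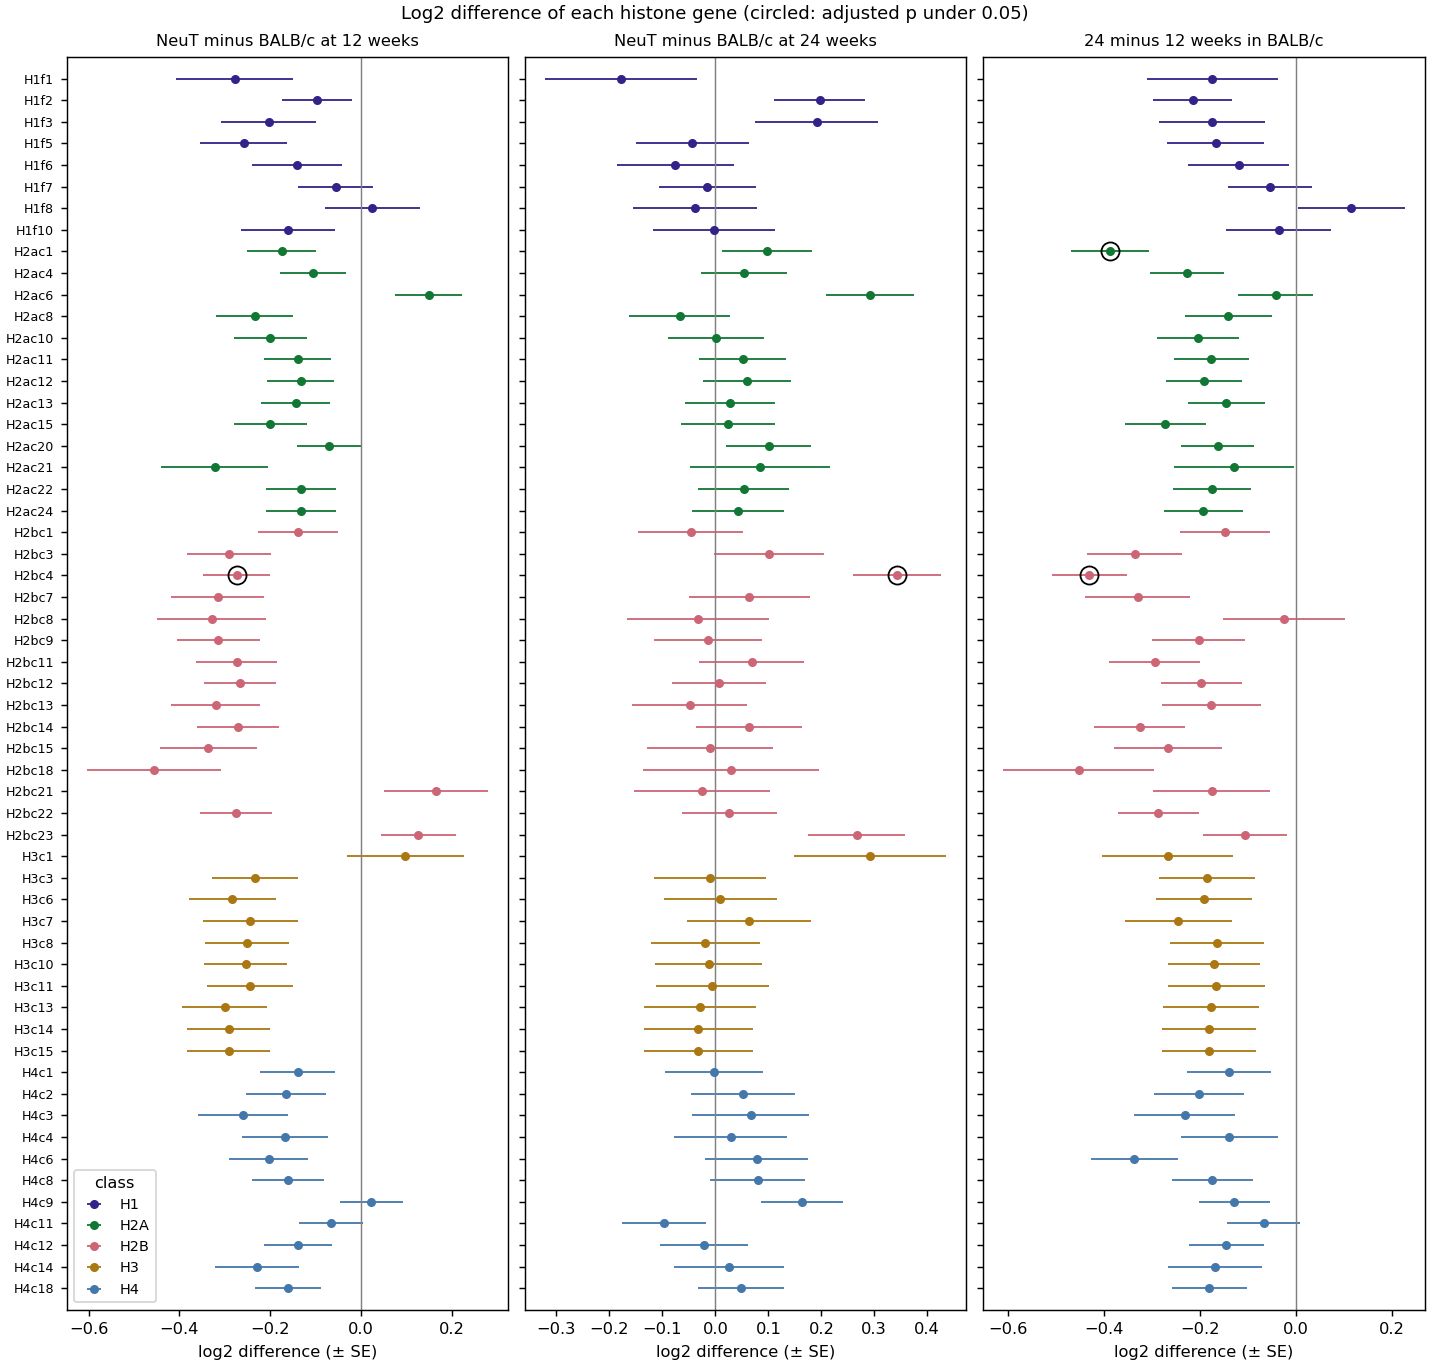
Log2 difference of each of the 57 histone genes with its SE (x axis; genes on the y axis, coloured by class) for the strain contrast at 12 and 24 weeks and for 24 minus 12 weeks in BALB/c, with circles at adjusted p under 0.05. At 12 weeks 51 genes lie left of 0 and H2bc4 is circled, at 24 weeks 34 lie right of 0 and H2bc4 is circled, and with age 56 lie left of 0 and H2bc4 and H2ac1 are circled; the 3 panels have different x scales.

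By class, the median 12-week difference was -0.15 over the H1 genes (7 of 8 below 0), -0.14 over the H2A genes (12 of 13), -0.28 over the H2B genes (13 of 15), -0.25 over the H3 genes (9 of 10) and -0.16 over the H4 genes (10 of 11). The H2B and H3 classes held 21 of the 29 genes at -0.2 or less, 12 and 9 of them. These are descriptions of classes, and differences between classes were not tested. The 6 genes above 0 were H2bc21 (0.16), H2ac6 (0.15), H2bc23 (0.13), H3c1 (0.10), H1f8 (0.03) and H4c9 (0.02), and none passed the test. H2bc21 and H3c1 were not above 10.46 in any array.

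H1f1, a somatic linker histone, read 12.59 ± 0.12 (SD, n = 5) in the controls and 12.31 ± 0.29 in NeuT mice of 12 weeks, a difference of -0.28 ± 0.13 (SE). H1f5 had the smallest p of the class, with a difference of -0.26 ± 0.096 and a limma adjusted p of 0.12. The oocyte gene H1f8 read 7.46 ± 0.11 and 7.49 ± 0.12, close to the median of the negative controls. H1f6 (-0.14), H1f7 (-0.056) and H1f10 (-0.16) were also at low signal and did not pass. The 51 genes without the 6 germ-cell and replacement genes had a median of -0.23, and those 6 a median of -0.14.

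Among H2A genes, which encode a core histone paired with H2B, the largest negative difference was that of H2ac21, -0.32 ± 0.12 (SE; adjusted p = 0.12 in limma). H2ac8 had the smallest p of the class (-0.23 ± 0.085; adjusted p = 0.12 in limma). H2ac6 pointed the other way. It read 10.96, 11.16, 11.20, 11.21 and 11.26 in the BALB/c and 11.25, 11.19, 11.49, 11.23 and 11.39 in the NeuT mice of 12 weeks. These groups overlapped, and the difference of 0.15 did not pass.

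H2B was the class with a gene past the threshold. H2bc4 read 11.86, 12.07, 11.99, 11.93 and 11.96 in BALB/c mice of 12 weeks and 11.58, 11.66, 11.72, 11.74 and 11.74 in NeuT mice. All 5 NeuT arrays lay below all 5 BALB/c arrays. H2bc4 was lower in NeuT mice by 0.27 ± 0.074 in log2 units (SE, with adjusted p = 0.0400 in limma), which is 1.21-fold. The call ended when any 1 array of these groups but NeuT replicate 5 was left out (9 of 10 fits; adjusted p up to 0.118), and also without NeuT replicate 3 of 24 weeks, which is in the same fit, while the difference kept between -0.30 and -0.25. H2bc18 had the largest difference of any of the 57, -0.46 ± 0.15 (adjusted p = 0.080 in limma). Its BALB/c arrays read 11.84, 12.19, 12.21, 12.34 and 12.16 and its NeuT arrays 11.82, 11.71, 11.89, 10.97 and 12.05. The groups overlapped, and NeuT replicate 4 read lowest by a wide margin; without it the difference was -0.28. Further H2B genes just short of the threshold were H2bc9 (-0.31; adjusted p = 0.055), H2bc22 (-0.28; 0.055) and H2bc12 (-0.27; 0.060).

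**Figure D2:**
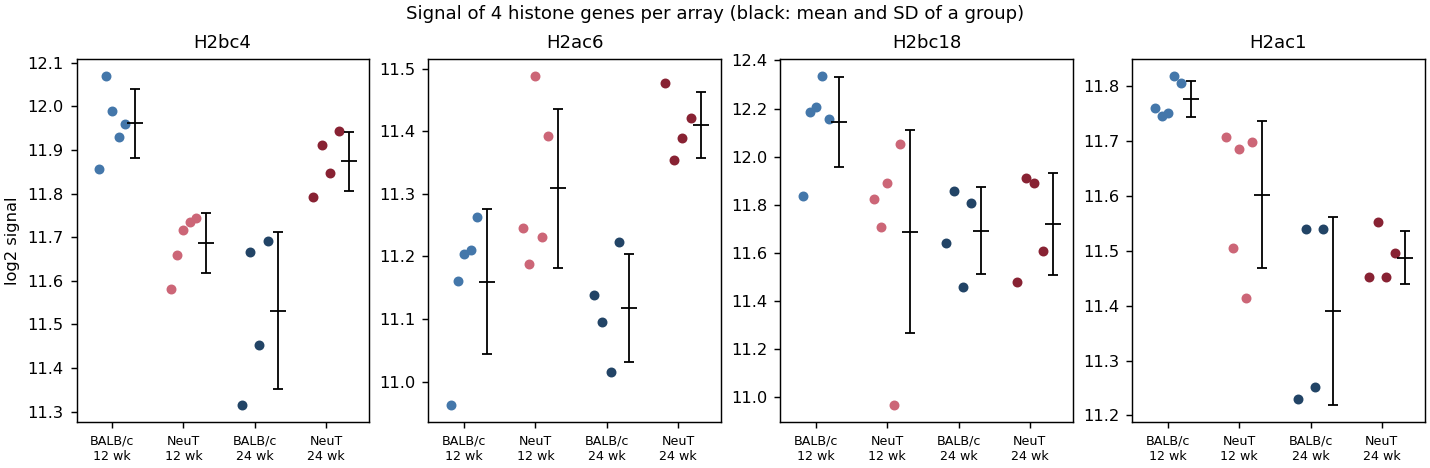
Log2 signal per array (y axis, a scale per gene) of H2bc4, H2ac6, H2bc18 and H2ac1 in the 4 groups (x axis), with the mean and SD of each group in black. H2bc4 lies lower in NeuT than in BALB/c at 12 weeks and higher at 24 weeks, with no overlap at either age, and 1 NeuT array of 12 weeks reads 10.97 for H2bc18.

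Of the H3 genes, H3c13 had the largest difference, -0.30 ± 0.094 (adjusted p = 0.073 in limma), from 13.04 ± 0.10 (SD, n = 5) to 12.74 ± 0.23, and its groups did not overlap. Of the H4 genes, H4c3 had the largest, -0.26 ± 0.099 (adjusted p = 0.13 in limma), and its groups overlapped. The H4 genes ran from -0.26 to 0.02, and 4 of 11 had an unadjusted p under 0.05.

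NeuT replicate 4 of 12 weeks stood apart. In it 51 of the 57 genes lay below the mean of their group, with a median deviation of -0.29, and it had the lowest median correlation with the other arrays (0.987 across genes). Without it 52 of 57 genes still lay below 0, with a smaller median of -0.13, and 0 of the 57 passed (1.55% of all genes did); H2bc4 was then at -0.29, H2ac8 at -0.15, H3c13 at -0.20 and H4c3 at -0.15. NeuT replicate 5 mattered in the other way: without it 15 of the 57 passed, all lower, namely H2bc4 and 9 further H2B genes, H3c13, H3c14, H3c15, H1f5 and H2ac8 (1.76% of all genes passed as lower in that fit). The count of genes past the threshold at 12 weeks therefore ran from 0 to 15 over fits without 1 array, while 51 or 52 of the 57 lay below 0 in each of these fits.

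**Figure D3:**
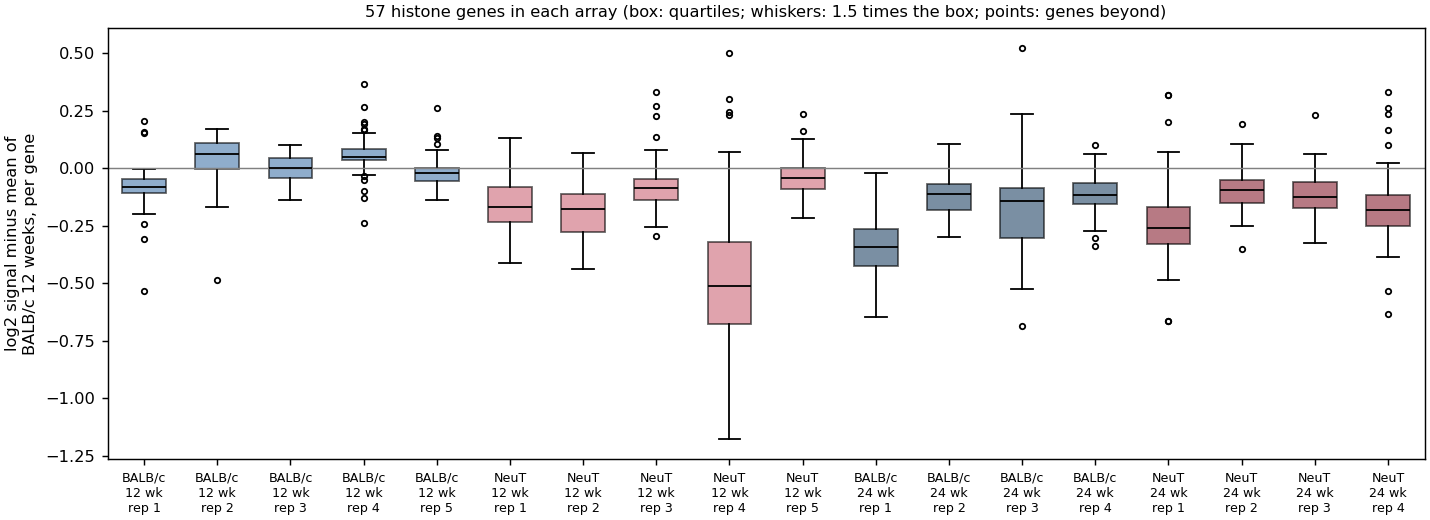
Log2 signal of the 57 histone genes in each of the 18 arrays (x axis) minus the mean of that gene over the BALB/c arrays of 12 weeks (y axis), with boxes at the quartiles, whiskers to 1.5 times the box and points beyond. NeuT replicate 4 of 12 weeks lies lowest, and the arrays of the other 3 groups lie mostly below those of the BALB/c mice of 12 weeks, which serve as the reference.

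Class medians were also taken in each array. The H2A median was 13.43 to 13.57 in the controls and 13.01 to 13.43 in NeuT mice of 12 weeks. The H1 median was 10.25 to 10.33 and 9.93 to 10.22. In these classes the groups did not overlap, for H2A by a narrow margin (lowest control 13.4287, highest NeuT array 13.4284). In each of these 12-week arrays the H2A median was the value of 1 gene, H2ac15, named above among the genes without overlap. The H1 median was in each the mean of H1f5 and the sperm cell gene H1f7, which was not above 10.46 in any array. The H2B median was 12.22 to 12.43 and 11.74 to 12.32, the H3 median 12.65 to 12.91 and 12.08 to 12.66, and the H4 median 12.24 to 12.37 and 11.74 to 12.33, with overlap in each. The differences of the class means of these medians were -0.16 ± 0.053 (SE) for H1, -0.20 ± 0.080 for H2A, -0.24 ± 0.11 for H2B, -0.28 ± 0.11 for H3 and -0.16 ± 0.11 for H4.

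**Figure D4:**
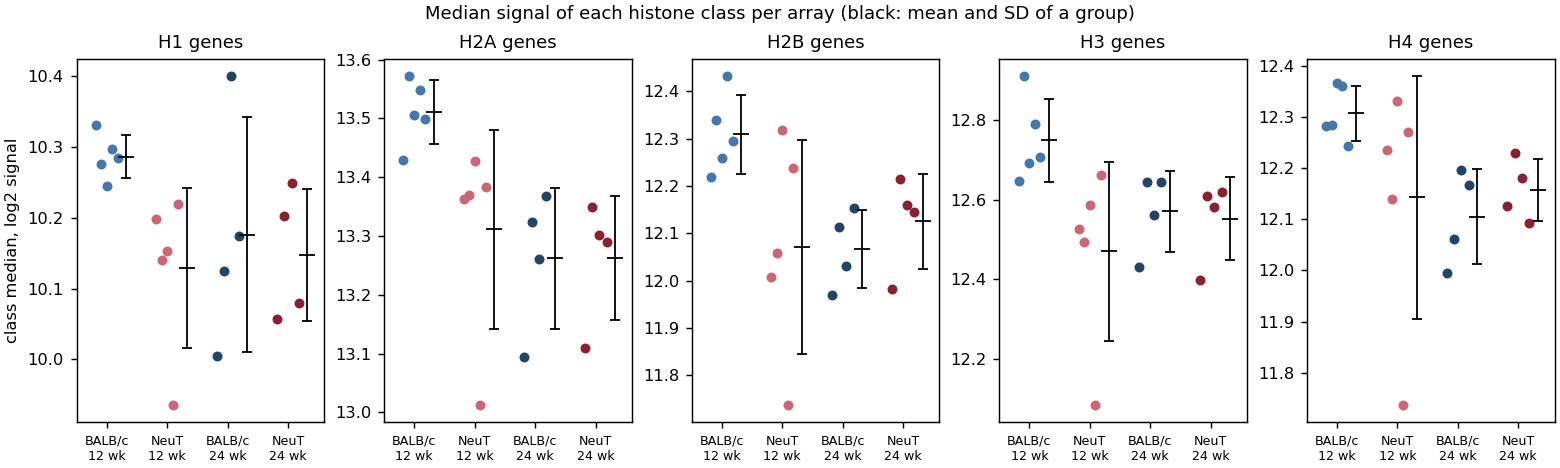
Median log2 signal of each histone class per array (y axis, a scale per class) in the 4 groups (x axis), with the mean and SD of each group in black. The BALB/c arrays of 12 weeks lie highest on average in every panel, and the lowest array of 12 weeks in each panel is NeuT replicate 4.

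At 24 weeks the signs were mixed. The NeuT minus BALB/c difference was above 0 for 34 genes and below 0 for 23, with a median of 0.026, against a median of -0.00014 over all genes, of which 50.1% lay below 0. This direction depended on the scaling: 46 of 57 lay below 0 after a further quantile normalization and 47 after cyclic loess, with medians of -0.064 and -0.050, and 43 with array weights. It also depended on single arrays: 36 lay below 0 without BALB/c replicate 1 and 9 without NeuT replicate 1, with medians of -0.024 and 0.055. H2bc4 passed alone, and was higher; 1.18% of all genes passed as higher and 1.4% in either direction. The groups did not overlap for 5 genes, all higher in NeuT (H1f3, H2ac6, H2bc4, H2bc23 and H4c9), against 4.95% of all genes. Among the 3488 genes with a mean above 10.46, as most histone genes were, 380 were higher in NeuT without overlap. Of those 3488 genes 2467 lay above 0, with a median of 0.068. The histone genes thus did not stand above genes of like signal at 24 weeks.

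H2bc4 read 11.31, 11.67, 11.45 and 11.69 in the BALB/c and 11.79, 11.91, 11.85 and 11.94 in the NeuT mice of 24 weeks. All 4 NeuT arrays lay above all 4 BALB/c arrays, the reverse of the order at 12 weeks. H2bc4 was higher in NeuT mice by 0.34 ± 0.083 (SE, with adjusted p = 0.0424 in limma), or 1.27-fold. The call held without BALB/c replicate 2 or 4 and ended without any other single array of these groups (6 of 8 fits; adjusted p up to 0.181), and the difference stayed between 0.27 and 0.40. Of the 12-week arrays, which share the fit, leaving out BALB/c replicate 1, 3, 4 or 5 or NeuT replicate 2 or 3 also ended it. It also ended after both normalizations named above (adjusted p of 0.070 and 0.077).

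Other genes at 24 weeks are given as values. The neighbour of H2bc4, H2ac6, read 11.14, 11.10, 11.02 and 11.22 in BALB/c and 11.48, 11.35, 11.39 and 11.42 in NeuT mice. Its groups did not overlap, and the difference was 0.29 ± 0.083 (SE; adjusted p = 0.080 in limma). For H2bc23 it was 0.27 ± 0.092 (adjusted p = 0.17), for H4c9 0.16 ± 0.078 (0.37) and for H1f2, a somatic linker histone, 0.20 ± 0.087 (0.32), which was 0.095 without BALB/c replicate 1. The largest negative values of their classes were those of H1f1 (-0.18), H2ac8 (-0.067), H2bc13 (-0.048), H3c14 (-0.032) and H4c11 (-0.097). H3c1 read 0.29 higher, at signals below the median of the negative controls. H2bc18, at -0.46 at 12 weeks, was at 0.03 ± 0.17 here.

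The change of the NeuT difference between the ages was tested directly. The 24-week difference minus the 12-week difference was above 0 for 54 of 57 genes, with a median of 0.22, while over all genes the median was 0.020 and 44.4% lay below 0. With limma 0 of the 57 passed; 0.0103% of all genes did, 2 genes in all. At an unadjusted p under 0.05, 15 of the 57 were above 0, 9 of them H2B genes, against 3.82% of all genes. H2bc4 had the largest value, 0.62 ± 0.11 (SE; adjusted p = 0.0863 in limma), and ranked 3 of 19505 genes by p. Over the other processing settings its adjusted p ran from 0.013 to 0.19, and over fits without 1 array from 0.037 to 0.27. H2bc18 followed with 0.49 ± 0.22 (adjusted p = 0.75). The change of the H2bc4 difference between the ages thus did not pass the threshold.

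The age comparison in BALB/c mice shares the BALB/c arrays of 12 weeks with the NeuT comparison at that age, and values are given side by side for that reason. It likewise shares the BALB/c arrays of 24 weeks with the NeuT comparison at 24 weeks, where H2bc4 was at 0.34. From 12 to 24 weeks 56 of 57 genes lay below 0 in BALB/c mice, with a median of -0.18; over all genes 55.9% did, with a median of -0.018. In limma 2 genes passed, H2bc4 and H2ac1, both lower with age (0.246% of all genes passed as lower, 0.579% in either direction). H2bc4 fell by 0.43 ± 0.079 (SE, with adjusted p = 0.0202 in limma), against -0.27 for NeuT at 12 weeks. In NeuT mice H2bc4 changed by 0.19 from 12 to 24 weeks (adjusted p = 0.32 in limma). H2ac1 fell by 0.39 ± 0.081 (adjusted p = 0.0336), against -0.17. H2ac1 read 11.76, 11.75, 11.75, 11.82 and 11.81 in BALB/c mice of 12 weeks and 11.23, 11.54, 11.25 and 11.54 in those of 24 weeks, with no overlap. These calls changed with single arrays of the contrast. That of H2bc4 held in 5 of 9 fits and that of H2ac1 in 3 of 9; without BALB/c replicate 1 of 24 weeks they stood at -0.36 (adjusted p = 0.0825) and -0.33 (0.117).

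The groups did not overlap for 24 of the 57 genes, all lower at 24 weeks, against 3.57% of all genes: 2 H1, 7 H2A, 9 H2B, 3 H3 and 3 H4 genes. The class medians of the differences were -0.14 (H1), -0.18 (H2A), -0.27 (H2B), -0.18 (H3) and -0.17 (H4). Just short of the threshold were H4c6 (-0.34; adjusted p = 0.077), H2bc14 (-0.33; 0.096), H2bc3 (-0.34; 0.096) and H2bc22 (-0.29; 0.099). The lone gene above 0 was H1f8, at 0.12 and low signal. BALB/c replicate 1 of 24 weeks had 52 of 57 genes below its group mean, with a median deviation of -0.15. Without NeuT replicate 4 of 12 weeks, which is outside this contrast but in the same fit, 8 genes passed in place of 2, all lower, while the share of all genes passing as lower went from 0.246% to 0.687%. In NeuT mice 15 of 57 genes were below 0 from 12 to 24 weeks, with a median of 0.037, and 0 passed in limma (0.0359% of all genes did; 4 of the 57 had an unadjusted p under 0.05, 3 of them higher, against 12.6% of all genes). Over all genes 51.1% lay below 0 in this comparison. Without NeuT replicate 4 of 12 weeks the histone count turned to 45 of 57 below 0, with a median of -0.036. The labels give no processing batch, so age and a batch of the 12- and 24-week mice cannot be told apart.

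Other genes of the pathway had medians nearer 0 at 12 weeks. In the text that follows, counts at an unadjusted p under 0.05 stand against 21% of all genes at 12 weeks, 13.2% at 24 weeks and 15.3% with age in BALB/c. Of 43 genes of S phase and DNA replication the median was -0.031 at 12 weeks and -0.0040 at 24 weeks, and 1 passed: Pole2, a DNA polymerase epsilon subunit, which rose by 0.49 ± 0.11 (SE; adjusted p = 0.0202 in limma) at 12 weeks, against 3.15% of all genes called higher. Of 18 genes that transcribe or process histone mRNA the medians were -0.024 and 0.037, and 1 passed: Ncbp2, a subunit of the nuclear cap-binding complex, which rose by 0.44 ± 0.11 (adjusted p = 0.0306) at 12 weeks. Of 19 histone chaperone genes 0 passed at either age (3 and 1 at an unadjusted p under 0.05), with medians of -0.012 and 0.026; Nasp, a chaperone of H1 and H3, was at 0.29 at 12 weeks (adjusted p = 0.085 in limma). Of 11 genes listed as replication-independent variants 0 passed (2 and 1 unadjusted), with medians of -0.028 and 0.076. Of the 2 at 12 weeks 1 was H2bu2, an H2B gene outside the symbol rule, at -0.28 (adjusted p = 0.083 in limma). Of 24 genes of mitosis 0 passed (6 and 1 unadjusted), with medians of -0.012 and 0.0073. With age in BALB/c mice the S phase median was -0.11 (38 of 43 below 0) and the mitosis median -0.092 (20 of 24), and 0 genes of either list passed in limma (9 and 4 at an unadjusted p under 0.05). With age in NeuT mice these medians were -0.068 (36 of 43) and -0.076 (20 of 24), where the histone median was 0.037, and 0 genes passed (7 and 3 unadjusted).

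**Figure D5:**
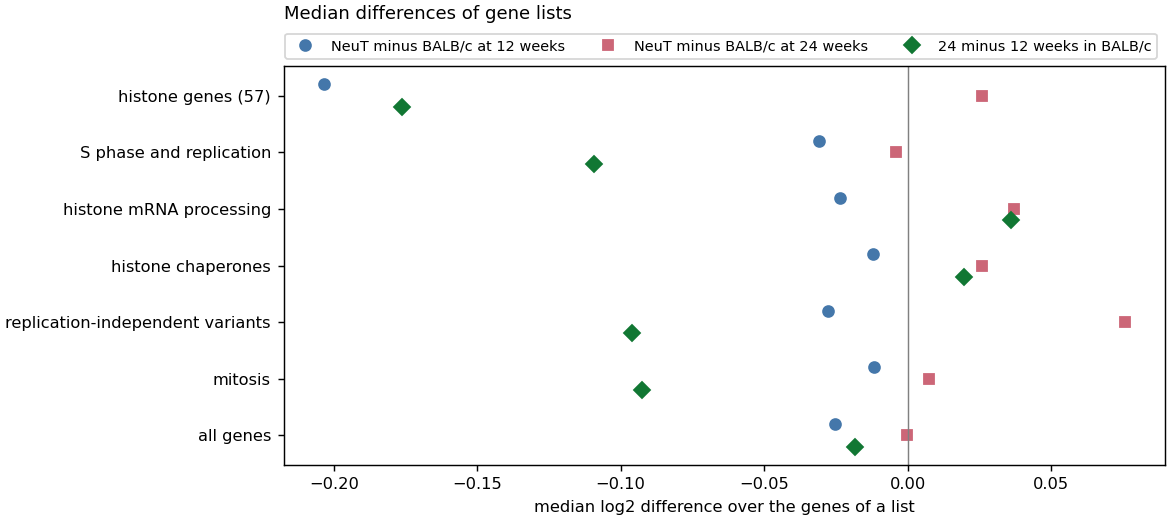
Median log2 difference (x axis) over the 57 histone genes, 5 lists of related genes and all genes (y axis) for NeuT minus BALB/c at 12 weeks (circles), at 24 weeks (squares) and for 24 minus 12 weeks in BALB/c (diamonds). The histone median at 12 weeks is -0.20 and those of the 5 other lists lie between -0.031 and -0.012; with age in BALB/c the histone median is -0.18 and the S phase median -0.11.

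Markers of other cell types differed between the same groups. Counts past the threshold stand against 3.15% of all genes called higher and 0.687% called lower at 12 weeks. At 24 weeks these shares were 1.18% and 0.22%. Of 11 mature neutrophil genes 11 were above 0 in NeuT mice at 12 weeks (median 1.02, 6 passed) and at 24 weeks (1.07, 5 passed), where the histone medians were -0.20 and 0.026. At 12 weeks their mean signal ran from 9.79 to 10.64 in the controls and from 10.07 to 11.77 in the NeuT arrays. Of 11 B-cell genes the medians were -0.53 and -0.71, and 0 passed in limma (6 and 8 at an unadjusted p under 0.05). Of 7 erythroid genes they were -0.23 and -0.28, and 0 passed (2 and 2 unadjusted). Of 8 megakaryocyte genes they were -0.21 and 0.11, with -0.23 for age in BALB/c, and 0 passed (6, 0 and 5 unadjusted). Of 8 endothelial genes they were -0.095 and 0.046, with -0.11 for age in BALB/c, and 1 passed, lower at 12 weeks. Of 11 monocyte and macrophage genes the medians were 0.22 and 0.20, with 5 higher and 1 lower past the threshold at 12 weeks and 1 higher at 24 weeks. Of 12 T and NK cell genes they were -0.10 and -0.32, with 0 past it at 12 weeks (2 unadjusted) and 3 at 24 weeks, all lower. Of 14 stromal genes the medians were -0.023 and 0.13, and 0 and 1 passed, with mean signals of 7.99 to 8.30 over all arrays. Neutrophil precursor genes (8) had medians of 0.14 and 0.30, and 1 passed at each age, as higher. Stem and progenitor genes (10) had medians of 0.16 and 0.19, with 2 past the threshold at 12 weeks, both higher, and 0 at 24 weeks (5 unadjusted). Mast cell, basophil and eosinophil genes (8) had medians of 0.17 and 0.010, with 2 past it at 12 weeks, both higher, and 0 at 24 weeks (0 unadjusted). In NeuT replicate 4 of 12 weeks, the array with the lowest histone signals, the neutrophil mean was 11.77, the highest of all arrays, the erythroid mean 10.77 and the B-cell mean 10.71, within the BALB/c range of 10.55 to 10.73. The part of these cell types in the histone results was not tested.

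Promoter letters were set beside the differences. At 12 weeks the 6 H2B genes with the octamer had a median of -0.28 and the 7 without it -0.31; the 6 and 7 H2A genes had medians of -0.12 and -0.14. These are descriptions, with overlapping ranges in both classes.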

How the data were processed

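Total RNA of 18 mice was isolated with a miRNeasy kit and biotin-labelled, per the labels' protocols. The authors deposited log2 signals, 1 per probe set and array; RMA, which corrects background, applies quantile normalization and summarises probes, and the Transcriptome Analysis Console are named in the submitters' processing notes. Versions and a genome build for them were not given in the sources used here. RMA makes the array distributions alike, so a shift shared by most genes would be lost.

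Of 29129 probe sets, 19572 were paired with 1 gene symbol and 0 with several. Left out were 2615 unnamed transcript clusters, 5222 negative and 1324 positive control probe sets, and 396 others. Where several probe sets named a gene (55 genes), that of the highest mean signal was used, which left 19505 genes; each of the 57 histone genes had 1 probe set, and all 57 symbols equalled the RefSeq symbol of their Entrez ID. Of 68 RefSeq genes that match the symbol rule, 11 were not analysed here.

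A mean per group was fitted with limma 3.58.1 in R 4.3.3 (14 residual and 8.68 prior degrees of freedom) over all genes, with two-sided tests, Benjamini-Hochberg adjustment over all genes and a threshold of 0.05. The fit was tested on simulated data. Medians over lists and classes carry no test. Genes were named by a rule: those past the threshold, the highest and lowest mean signal, the largest differences and smallest p of each class, the germ-cell and replacement genes, and for other lists genes past the threshold or those with the smallest p. H2bc21, H2bc23, H2bc9, H2bc22, H2bc12, H4c6, H2bc14, the genes without overlap and those listed for single-array fits were named after their values were seen, as were Ptprc, Elane and Cxcl12. The members and lists were chosen with earlier results of these data known. Alternatives were other normalizations, filters on dim genes, other probe set rules, moderation with a trend, array weights, fits on the groups compared, a fold minimum of 1.2 and leaving out arrays. Detection calls were not among the values used here, and read depth does not apply to arrays. The number of arrays limits the precision. Python 3.11.15 and matplotlib 3.10.9 searched the promoters and drew the figures.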

Additional observations from a re-analysis of the deposited data

Results flagged for a closer look

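Single arrays far from the rest of their group were sought in 56 group tests of class medians and named genes. The measure was the gap to the nearest array as a share of the group's range, and 5 such readings were found. Chance gives about 1 in 20 groups. The tests were not independent, because class medians and member genes came from the same arrays. The count of 5 is therefore not compared with that rate. NeuT replicate 4 of 12 weeks read low for the H1 median (9.93; share 0.719), the H2A median (13.01; share 0.844) and H3c13 (12.33; share 0.739). NeuT replicate 1 of 24 weeks read low for the H3 median (12.40; share 0.837). BALB/c replicate 1 of 24 weeks read low for H3c13 (12.65; share 0.985), where its 3 companions all read 12.93.

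For 9 genes every NeuT array lay on 1 side of the BALB/c mean at 12 weeks and on the other side at 24 weeks. This rule was applied to the histone genes only, so no share of all genes stands beside the count. The 24-week minus the 12-week difference and its limma adjusted p over all genes were 0.6168 (0.0863) for H2bc4, 0.3925 (0.7109) for H2bc3, 0.3341 (0.7236) for H2bc14, 0.2938 (0.7236) for H1f2, 0.2721 (0.7398) for H2ac1, 0.24 (0.775) for H4c8, 0.1934 (0.8066) for H2ac12, 0.1913 (0.8064) for H2ac11 and 0.1858 (0.8339) for H2ac22. None of the 9 passed the threshold. H2ac11 and H2ac12 had nearly the same signals in every array.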

How the results depend on the processing

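None of the 13 gene differences recomputed changed sign under the alternatives run. The number of histone genes past the threshold did move. At 12 weeks (1 in the report) it was, all lower and with the share of all genes passing as lower in brackets (0.687% in the report), 6 after a further quantile normalization (1.15%), 14 after cyclic loess (1.14%), 4 and 14 with genes below the median or the 95th percentile of the negative controls left out (1.17% and 2.47%), 0 over all probe sets with controls (0.213%), 6 with a variance trend and robust moderation (0.728%), 15 with array weights (3.86%), 2 with 3 genes of older histone names (chosen after seeing the data; 1 of the 2 was higher, H4bc24), and 0 to 15 without 1 array. At 24 weeks (1) it was 0 after quantile normalization, after cyclic loess, over all probe sets, with array weights, without the 3 arrays that correlate least and in a fit on the groups compared, 2 with the stricter filter (3.81% of all genes in either direction) and 2 with the older names, and 0 to 1 without 1 array. For the difference between the ages (0) it was 1, H2bc4, after quantile normalization, cyclic loess, the stricter filter, robust moderation and array weights (0.0154% to 0.115% of all genes), and 0 to 1 without 1 array. For age in BALB/c (2) it was, all lower, 5 with the stricter filter (2.24% of all genes as lower), 7 with array weights (5.68%), 9 without the 3 arrays (3.34%), 1 without the germ-cell genes, 0 to 3 without 1 array of the groups compared, and 8 without NeuT replicate 4 of 12 weeks (0.687%). For age in NeuT it stayed at 0 in every fit. The filters and the wider table change how many tests are adjusted for; other causes were not tested. Without 1 array the median-based 12-week class differences ran from -0.18 to -0.11 (H1), -0.23 to -0.12 (H2A), -0.30 to -0.15 (H2B), -0.33 to -0.18 (H3) and -0.21 to -0.063 (H4). At 24 weeks they ran from -0.086 to 0.046, -0.055 to 0.052, 0.026 to 0.11, -0.065 to 0.033 and 0.015 to 0.082, and the H2A difference moved from 0.00033 to -0.12 after quantile normalization. No paired analysis was possible because the labels number mice by ID and give no replicate numbers shared between groups. The labels give NeuT replicate 4 of 12 weeks a different mouse ID in its title and its description.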

Other observations

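On the array 3 genes carry older Hist names only as RefSeq synonyms and were outside the symbol rule: H2bu2, H4bc24 and H4f16. They were named after their values were seen. H4bc24 read 10.58 ± 0.10 (SD, n = 5) in the controls and 10.87 ± 0.094 in NeuT mice of 12 weeks, and 10.57 ± 0.12 (n = 4) and 10.95 ± 0.14 at 24 weeks. It was higher in NeuT by 0.29 ± 0.077 (SE; adjusted p = 0.0350 in limma) at 12 weeks and by 0.38 ± 0.086 (adjusted p = 0.0315) at 24 weeks, with no overlap of the groups at either age, unlike H2bc4, whose sign turned between the ages. H2bu2, an H2B gene, was at -0.28 (adjusted p = 0.083 in limma) and -0.02 (0.95). It was also among the genes listed above as replication-independent variants. H4f16 was at 0.17 (0.19) and 0.01 (0.96), and neither of these genes passed.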
